A study of Mus musculus with 31 samples.

Results

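The proteasome was examined through the 40 protein-coding mouse genes whose symbols begin with Psma, Psmb, Psmc or Psmd followed by a digit, out of 21649 protein-coding genes and 25497 genes in all in the deposited RNA-seq tables. They were measured by bulk RNA-seq in thalamus from 31 adult mice (postnatal day 90). The 15 SIR animals (7 males and 8 females) were offspring of mothers whose housing is labelled SIR, for social isolation rearing, and the 16 control animals (8 males and 8 females) were offspring of control mothers. Strain, litter, age of the mothers and length of isolation are not given in the labels. The labels name no transgene or drug for any group. The question was whether proteasome transcripts differed in the offspring with the housing of the mother and with sex.

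The 26S proteasome is the protease that degrades proteins tagged with ubiquitin. Its core particle is a barrel made of outer rings of alpha subunits and inner rings of beta subunits, and Psmb5, Psmb6 and Psmb7 carry the catalytic sites. Interferon and other immune signals replace these with the immune subunits Psmb8, Psmb9 and Psmb10, which favour peptides for display on MHC class I. A regulatory particle caps the barrel: its ATPases (Psmc genes) unfold the substrate, and its other subunits (Psmd genes) bind and remove ubiquitin. The transcription factor Nfe2l1 raises proteasome genes together when proteasome activity falls.

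By role, the 40 genes were 8 alpha subunits, 7 constitutive beta subunits, 3 immune subunits, the thymic beta subunit Psmb11, 6 ATPases of the regulatory particle, 11 other regulatory subunits, and 3 chaperones (Psmd5, Psmd9 and Psmd10) that help assemble the base of the regulatory particle. The remaining one, Psmc3ip, encodes a partner protein for meiotic recombination and is not a subunit. After a filter on low counts, 39 of the 40 were tested among 14886 genes. Psmb11 did not pass it: it summed to 33.5 estimated counts over all libraries and was above 0 in 16 of 31.

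Library totals ran from 13 to 25.74 M (mega) estimated counts, with a median of 23.28 M, and control female 31 (13 M) was the shallowest, followed by control male 23 (14.81 M). The 8 thalamic relay neuron markers examined (Tcf7l2 and Prkcd among them) were all present, and their levels summed to 1769 to 2557 TPM in SIR males and 2040 to 2632 TPM in control males, and to 1827 to 2359 TPM in SIR females and 1622 to 2445 TPM in control females. In the library labelled SIR female 5 the Y-linked gene Ddx3y reached 41.6 CPM (counts scaled to a common library total), a male level (31.5 to 50.2 CPM in the male libraries), while no other library labelled female was above 0.0481 CPM. Every SIR library carries a lower library number than any control library, so whatever these numbers stand for cannot be told apart from housing. A library's length slope is the slope, across genes, of log2 CPM (as deviation from the mean of all libraries) on log2 transcript length. Its mean was -0.039 ± 0.025 in the 7 SIR males (SD) and 0.005 ± 0.022 in the 8 control males, and 0.001 ± 0.016 in the 8 SIR females and 0.029 ± 0.026 in the 8 control females. Proteasome transcripts are short: the 39 tested had a median effective length of 1056 bases, against 2405 bases over all genes tested. Calls and medians of members are therefore set beside those of genes of the same length.

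Levels were read as TPM, the deposited share of transcripts, which are scaled by length and so allow genes to be compared. The highest levels were those of 3 ATPases. Psmc5 averaged 326 TPM over the 31 libraries, Psmc1 266 TPM and Psmc3 257 TPM, while the 3 other ATPases lay between 106.5 (Psmc2) and 133 TPM (Psmc4). Among the other regulatory subunits, Psmd2 (178 TPM), a scaffold of the base, and Psmd8 (176 TPM), a lid subunit, were the highest, and Psmd11 (60.8 TPM), a lid subunit, the lowest of the regulatory particle. Psmc5 had 296, 324 and 360 TPM (lowest, median and highest) in SIR libraries, against 241, 328 and 368 TPM in control libraries. Psmd11 had 51.4, 59.7 and 70.7 TPM in SIR libraries, against 57.1, 61.6 and 67.3 TPM in control libraries. For both genes the SIR and control libraries overlapped over most of their range.

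The catalytic subunits were among the highest transcripts of the core. Psmb6, the caspase-like subunit, averaged 222 TPM, Psmb7, the trypsin-like subunit, 220.4 TPM, and Psmb5, the chymotrypsin-like subunit, 207 TPM. Psmb4, a beta subunit with no catalytic site, stood among them at 213 TPM. Setting aside Psma8, the alpha subunits ran from 87.8 TPM (Psma2) to 173 TPM (Psma6). Psma8, a germline copy of Psma7, averaged 0.948 TPM and was above 0 in all 31 libraries. Its reads cannot be fully separated from those of Psma7 where the copies are alike. The assembly chaperones were lower than the constitutive subunits other than Psma8, at 21.9 (Psmd9), 27.3 (Psmd10) and 37.4 TPM (Psmd5), and Psmc3ip stood at 2.87 TPM.

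The immune subunits were unequal. Psmb10 averaged 78.8 TPM, Psmb8 4.94 TPM and Psmb9 2.36 TPM. Summed, they reached 93.1 ± 4.68 TPM in SIR males (SD, n = 7) and 88.1 ± 8.55 in control males (n = 8), and 86.4 ± 12.3 in SIR females (n = 8) and 77.5 ± 10.7 in control females (n = 8). This was 13.7% ± 0.515 of the constitutive catalytic sum in SIR males and 13.1% ± 0.764 in control males, and 13.1% ± 1.77 in SIR females and 13.1% ± 1.24 in control females. The share ran from 13.2% to 14.6% in SIR males and 11.9% to 14.1% in control males, and from 10.9% to 15.4% in SIR females and upward of 11.5% in control females, so all 4 groups overlapped. For several of these genes a large part of the counts fell on transcripts not annotated as protein-coding: protein-coding transcripts took 51% of the counts of Psmb10, 55.8% of Psmb8 and 78.5% of Psmb9. The same held for Psma3 (49.8%) and Psmd13 (59.2%), whereas 91.9% of the counts of Psmb6 and 98.9% of those of Psmc4 fell on protein-coding transcripts.

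**Figure D1:**
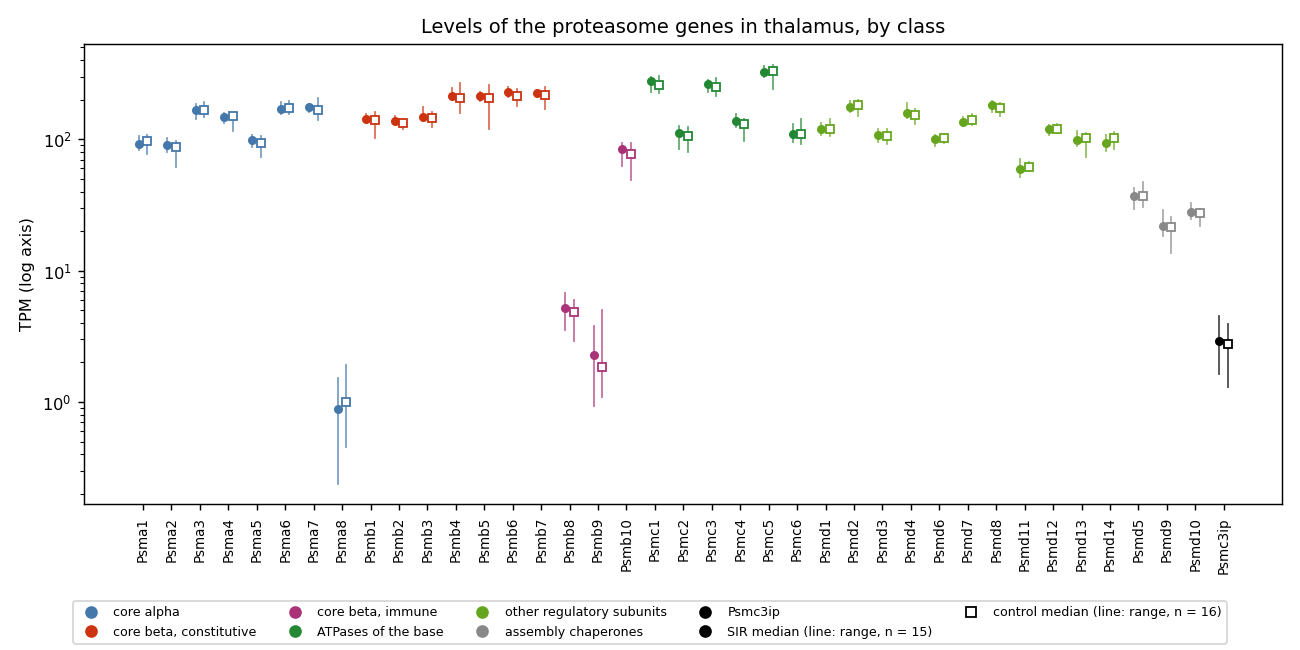
Levels of the 39 tested members in TPM on a log axis, grouped and coloured by role. Filled circles are medians of the 15 SIR libraries and open squares those of the 16 control libraries, with lines from the lowest to the highest library. The constitutive subunits lie between 60.8 (Psmd11) and 326 TPM (Psmc5) on average, while Psma8, Psmb8, Psmb9 and Psmc3ip average 0.948, 4.94, 2.36 and 2.87 TPM.

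Summed over the constitutive core subunits, control females had the lowest mean of the 4 groups. The sum was 2285 ± 81.7 TPM in SIR males (SD, n = 7) and 2275 ± 111 in control males (n = 8), and 2235 ± 60.6 TPM in SIR females (n = 8) and 2106 ± 153 in control females (n = 8). The beta subunits made up most of this difference, with 1299 ± 44.7 TPM in SIR females and 1191 ± 92 in control females, whereas the alpha sum was 936 ± 29.4 TPM in SIR females and 915 ± 65.3 in control females. Control females 29, 30 and 31 had the lowest core sums of their group, at 2074, 2009 and 1778 TPM. The other control females ran from 2165.5 to 2228 TPM, against 2113 to 2309 TPM in SIR females. Beta sums were 1142, 1123 and 1007 TPM in control females 29, 30 and 31 and 1241 to 1257 TPM in the others, against 1231 to 1374 TPM in SIR females. These libraries are among the 8 numbered far from the others of their housing group. The regulatory particle summed to 2602 ± 89.4 TPM in SIR males and 2616 ± 96.7 in control males, and to 2546 ± 117 TPM in SIR females and 2463 ± 151 in control females. The ratio of core to regulatory particle was 0.879 ± 0.0234 in SIR libraries (n = 15) and 0.862 ± 0.024 in control libraries (n = 16). It ran from 0.835 to 0.925 in SIR libraries and from 0.812 to 0.913 in control libraries, so the groups overlapped. Sums over members and their ratio are given as a description, with no test.

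Over both sexes, 5 of the 39 tested members rose in SIR offspring and none fell (edgeR quasi-likelihood test, Benjamini-Hochberg adjusted p under 0.05 over all genes). Of all genes tested, 4.55% passed, 1.76% upward and 2.79% downward. Of the 5311 genes with an effective length in the central range of the members (691 to 2053 bases), 2.79% rose and 0.621% fell. The 5 were the catalytic subunit Psmb6, the ATPases Psmc3 and Psmc4, the ubiquitin receptor Psmd4 and the assembly chaperone Psmd9. Their log2 fold changes were small, from 0.10 to 0.14. In bulk tissue, fewer cells of a type and less RNA per cell cannot be told apart.

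Psmb6 was the member with the smallest p. It had 75.05, 84.3 and 94.05 CPM (lowest, median and highest) in SIR libraries, against 67.4, 75.7 and 86.2 CPM in control libraries. The ranges overlapped, but 14 of 15 SIR libraries lay above the control median. Its log2 fold change was 0.14 ± 0.03 (SE, adjusted p = 0.0137, edgeR). The ATPases followed. Psmc4 had 82.3, 89.1 and 96.4 CPM in SIR libraries, against 67.2, 83.8 and 88.9 CPM in control libraries, a log2 fold change of 0.10 ± 0.03 (adjusted p = 0.0319). Psmc3 had 147, 159 and 177 CPM in SIR libraries, against 116, 149.6 and 165.5 CPM in control libraries, a log2 fold change of 0.11 ± 0.03 (adjusted p = 0.0451). For both ATPases 14 of 15 SIR libraries were above the control median, and control female 31 was the lowest library of all. Psmd4 had 86.8, 95.5 and 110.4 CPM in SIR libraries, against 81.3, 91.8 and 100.4 CPM in control libraries, a log2 fold change of 0.10 ± 0.03 (adjusted p = 0.0466). Psmd9 had 17.96, 21.04 and 23.6 CPM in SIR libraries, against 16.6, 19.1 and 20.6 CPM in control libraries, a log2 fold change of 0.13 ± 0.04 (adjusted p = 0.0374). Of SIR libraries, 13 of 15 were above the control median for Psmd4 and 11 of 15 for Psmd9.

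The call for Psmb6 remained whichever single library was left out (adjusted p from 0.00745 to 0.0282), while the others were less stable. The count of 5 was 1 without the library labelled SIR female 5, control male 25, control female 29 or control female 30. It was 2 without SIR females 2 or 10, SIR males 8 or 15, control males 19 or 21, or control females 17 or 31, and 3 without SIR male 1, SIR females 3 or 12, or control male 22. It was 8 without control male 27 and 9 without SIR male 14. None of the 39 passed once the trend of each library with transcript length was removed, on log2(TPM + 1), or without 8 libraries numbered far from the others of their housing group, where no gene of 14918 passed. Of all 14886 genes, 14 were higher and 11 lower with the length trend removed, and 43 higher and 269 lower on log2(TPM + 1), so few genes of any kind rose in these settings. Psmb6 then had a log2 fold change of 0.09 ± 0.03 with the length trend removed (adjusted p = 0.102), 0.115 ± 0.036 on log2(TPM + 1) (adjusted p = 0.0732, limma) and 0.11 ± 0.03 without the 8 libraries (adjusted p = 0.137).

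By role, all 7 constitutive beta subunits had positive log2 fold changes, from 0.06 (Psmb2) to 0.14 (Psmb6), with a median of 0.08, and each had an unadjusted p under 0.05. Genes of the same length had a median of 0.05 at the lengths of these 7 genes. The 8 alpha subunits had a median of 0.05, near the 0.045 of genes of their length, and none passed (edgeR, 2 with an unadjusted p under 0.05; DESeq2 1 and limma-voom 0). The 6 ATPases had a median of 0.07, against 0.03 at their lengths. The 11 other regulatory subunits had a median of -0.01, against 0.03 at their lengths: 5 were positive, led by Psmd4, and the lowest was Psmd11 at -0.06 ± 0.03 (adjusted p = 0.221). Over the 39 members the median was 0.07 with 29 positive, against 0.04 at their lengths and -0.01 over all 14886 genes. Over all genes 7099 of 14886 were positive. Unadjusted p was under 0.05 for 17 of the 39 members and for 3283 of the 14886 genes. These shares were not counted among genes of the members' length, so here short genes are set beside genes of all lengths.

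For the catalytic subunits, Psmb5 had a log2 fold change of 0.12 ± 0.05 (adjusted p = 0.123) and Psmb7 one of 0.08 ± 0.03 (adjusted p = 0.0674), and neither passed. Of their immune counterparts, Psmb10 had 0.11 ± 0.04 (adjusted p = 0.0725), Psmb8 0.16 ± 0.09 (adjusted p = 0.322) and Psmb9 0.13 ± 0.15 (adjusted p = 0.669), and none passed (edgeR, 1 of 3 with an unadjusted p under 0.05; DESeq2 1 and limma-voom 0). DESeq2, run beside edgeR, called 9 members, among them Psmb7 and Psmb10, and limma-voom called 5. Over all genes DESeq2 called 500 higher and 632 lower and limma-voom 251 higher and 364 lower, against 262 higher and 416 lower with edgeR.

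**Figure D2:**
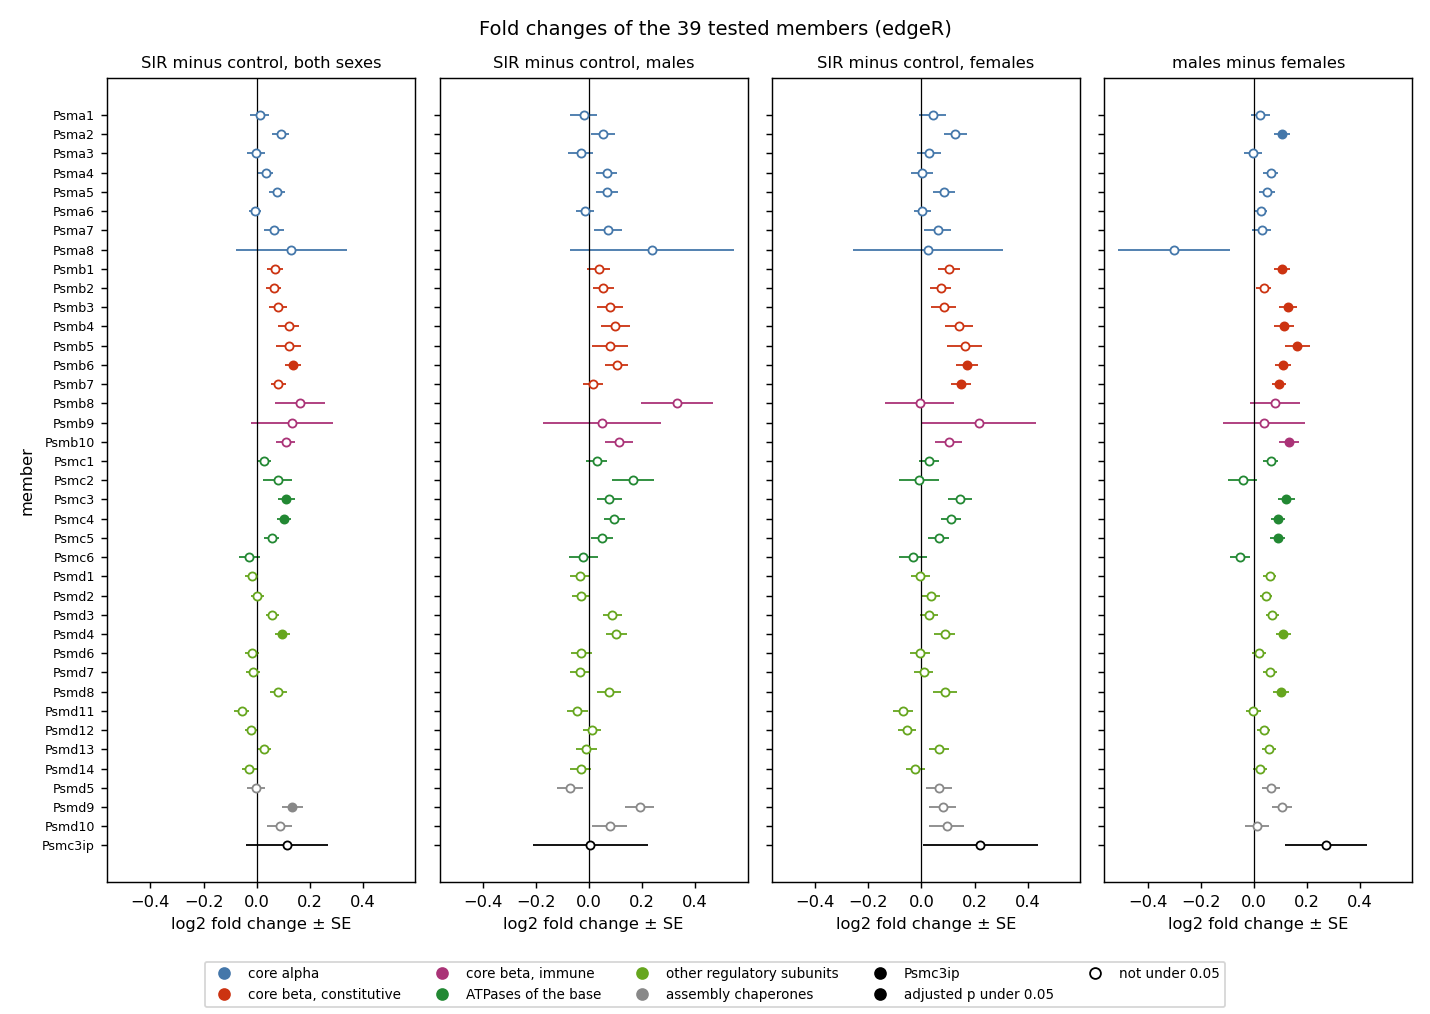
Log2 fold changes with SE of the 39 tested members, as SIR minus control (both sexes, males alone, females alone) and as males minus females, coloured by role. Filled points have an adjusted p under 0.05 (edgeR): 5 members with the sexes pooled, 0 in males, 2 in females and 13 between the sexes, all of them positive.

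RefSeq promoter entries (build GRCm38.p6, 250 bases before to 50 after the start) were found for 33 of the 40 members and for 4 of the 5 that rose; Psmc3 had none. They are shown because Nfe2l1 and Nfe2l2 act through the antioxidant response element, whose letters TGACNNNGC were searched on both strands. Capitals mark a match to these letters only. The Psmb6 entry is chr11:70525107-70525406 on the plus strand, that of Psmd9 chr5:123227940-123228239 on the plus strand, that of Psmc4 chr7:28050043-28050342 on the minus strand and that of Psmd4 chr3:95042565-95042864 on the minus strand.
Psmb6: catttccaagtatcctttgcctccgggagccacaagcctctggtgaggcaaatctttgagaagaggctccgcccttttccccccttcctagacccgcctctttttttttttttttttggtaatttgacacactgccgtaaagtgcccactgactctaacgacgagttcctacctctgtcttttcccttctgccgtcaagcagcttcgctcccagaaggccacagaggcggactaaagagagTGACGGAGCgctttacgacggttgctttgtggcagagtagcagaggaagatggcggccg
Psmd9: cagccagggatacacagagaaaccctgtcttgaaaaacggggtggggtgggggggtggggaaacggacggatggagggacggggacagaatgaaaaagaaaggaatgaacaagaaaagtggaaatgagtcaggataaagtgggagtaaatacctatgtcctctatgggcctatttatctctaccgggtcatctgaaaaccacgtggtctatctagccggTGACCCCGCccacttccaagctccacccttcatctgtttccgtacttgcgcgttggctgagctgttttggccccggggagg
Psmc4: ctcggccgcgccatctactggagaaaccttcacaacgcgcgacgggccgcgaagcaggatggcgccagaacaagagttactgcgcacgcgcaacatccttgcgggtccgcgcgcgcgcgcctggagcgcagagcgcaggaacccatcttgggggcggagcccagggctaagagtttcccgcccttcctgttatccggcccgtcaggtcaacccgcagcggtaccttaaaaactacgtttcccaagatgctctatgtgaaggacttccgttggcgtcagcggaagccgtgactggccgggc
Psmd4: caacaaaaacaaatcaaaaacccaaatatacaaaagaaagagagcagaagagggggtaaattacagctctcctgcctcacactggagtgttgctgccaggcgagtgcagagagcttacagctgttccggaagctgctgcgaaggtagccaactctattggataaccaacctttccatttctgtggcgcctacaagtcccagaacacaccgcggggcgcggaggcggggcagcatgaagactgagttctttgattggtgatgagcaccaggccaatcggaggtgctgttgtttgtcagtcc
The match in Psmb6 (TGACGGAGC) begins 9 bases before the start and that in Psmd9 (TGACCCCGC) 31 bases before it, while these letters are absent from the windows of Psmc4 and Psmd4. The catalytic subunit Psmb5, which did not pass over both sexes, has a match too (TGACGTCGC, 47 bases before the start). Some members have more than 1 entry, and 5 of 35 member promoters held the letters (14.3%), against 12.4% of all 32851 promoters of this length, so the share in the members was near the background. The CCAAT box (CCAAT, both strands) was in 14 member promoters (40%), against 37.4% of all. The interferon-stimulated response element (GAAA, then NN, then GAAA, both strands) was in 3 member promoters (8.6%), against 3.4% of all. The 3 were those of Psmb3, Psmd4 and Psmd9, none of them an immune subunit, and these matches are not in capitals above. The gamma-activated site (TTCNNNGAA, the same on both strands) was in 2 (5.7%), against 8.3% of all. One of these 2 was Psmb8, while the promoters of Psmb9 and Psmb10 held neither interferon element. A match is a description of letters and not of a bound site.

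In males alone, no member passed the test (edgeR, 0 of 39, with 8 at an unadjusted p under 0.05). Unadjusted p was under 0.05 for 2622 of the 14886 genes. Of all genes, 1.33% passed in SIR males, 0.282% upward and 1.05% downward, and of genes of the members' length 0.395% rose and 0.151% fell. DESeq2 called 1 member, Psmd9, and limma-voom 0. Over all genes DESeq2 called 211 higher and 395 lower, and limma-voom 50 higher and 151 lower. Psmd9 had 20.5, 21.5 and 23.6 CPM in SIR males, against 17.05, 19.4 and 20.2 CPM in control males, so that the groups did not overlap in CPM. The share of all genes without overlap was not counted. In TPM Psmd9 did overlap, at 19.86 to 28.74 in SIR males and 17.18 to 24.99 in control males. Its log2 fold change was 0.19 ± 0.05 (adjusted p = 0.0594, edgeR), and it passed without control male 27 or control female 31. Psmd4 had the next smallest p, at 0.10 ± 0.04 (adjusted p = 0.17). The median over the 39 members was 0.05, near that of genes of their lengths (0.046), and 27 were positive. Over all genes 7377 of 14886 were positive, and the share at the members' lengths was not counted.

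In females, 2 members rose, both catalytic, and none fell. Of all genes, 4.62% passed in SIR females, 2.38% upward and 2.24% downward, and of genes of the members' length 2.62% rose and 1.19% fell. Psmb6 had 75.05, 81.0 and 88.8 CPM in SIR females, against 67.4, 72.7 and 78.9 CPM in control females, a log2 fold change of 0.17 ± 0.04 (adjusted p = 0.0141, edgeR). Psmb7 had 109.0, 114 and 116 CPM in SIR females, against 91.4, 104 and 108.9 CPM in control females, a log2 fold change of 0.15 ± 0.04 (adjusted p = 0.0182). All 8 SIR females lay above the control median for both genes. For Psmb7 the groups just failed to overlap in CPM, at 109.05 for the lowest SIR female and 108.95 for the highest control female. In TPM they overlapped, at 212 to 232.5 in SIR females and 168.9 to 220 in control females. The share of all genes without overlap was not counted here either. The third constitutive catalytic subunit, Psmb5, had a log2 fold change of the same size, 0.16 ± 0.07, but did not pass (adjusted p = 0.15). Its libraries were more spread: it had 83.3, 88.8 and 95.1 CPM in SIR females, against 54.7, 82.95 and 88.3 CPM in control females, and the lowest was control female 31, at 54.7 CPM. Over the 7 beta subunits the female median was 0.14, against 0.03 for genes of their lengths, and over the 8 alpha subunits 0.035, against 0.026. With the length trend removed Psmb6 still passed in females (0.13 ± 0.04, adjusted p = 0.0305) and Psmb7 did not (0.12 ± 0.04, adjusted p = 0.0695). On log2(TPM + 1) neither passed, with log2 fold changes of 0.169 for Psmb6 (adjusted p = 0.0674, limma) and 0.15 for Psmb7 (adjusted p = 0.0866). Without the 8 libraries numbered far from the others neither passed, with 0.115 for Psmb6 (adjusted p = 0.299) and 0.139 for Psmb7 (adjusted p = 0.178).

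Whether the SIR difference was unequal in males and females was tested directly, as male minus female log2 fold change, and no member passed (edgeR, 0 of 39, with 1 at an unadjusted p under 0.05; DESeq2 and limma-voom 0). Of all genes, 2.83% passed here, 1.08% upward and 1.75% downward, and of genes of the members' length 1.24% were higher and 0.923% lower. Unadjusted p was under 0.05 for 2284 of the 14886 genes. The smallest p were those of Psmb7, with a male minus female difference in log2 fold change of -0.14 ± 0.05 (adjusted p = 0.185), and Psmd5, with -0.14 ± 0.07 (adjusted p = 0.341). Psmb7 had 107, 115 and 122.6 CPM in SIR males, against 106, 114.5 and 122.5 CPM in control males, so the male groups covered the same range. For the immune subunit Psmb8 the log2 fold change was 0.33 ± 0.13 in males (adjusted p = 0.186) and -0.01 ± 0.13 in females (adjusted p = 0.985), and the difference did not pass (0.34 ± 0.19, adjusted p = 0.408). Calls in one sex and not in the other are therefore not shown to differ between the sexes.

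**Figure D3:**
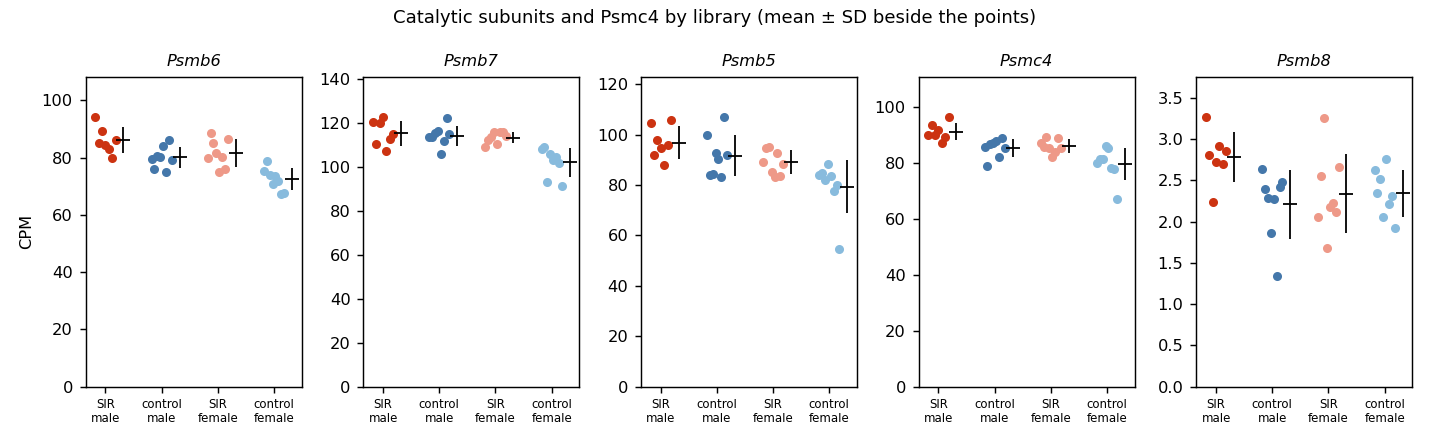
CPM of Psmb6, Psmb7, Psmb5, Psmc4 and Psmb8 in each of the 31 libraries by group, with the mean and SD beside the points, on axes from 0. Control females have the lowest mean for the 4 constitutive subunits, for example at 72.5 ± 3.88 CPM of Psmb6, against 81.7 ± 4.89 in SIR females, and the single low point of Psmb5 is control female 31, at 54.7 CPM.

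Sex was the comparison in which most members passed. Over both housing groups, 13 of the 39 were higher in males than in females and none was lower, against 10.1% of all genes that passed, 4.44% higher and 5.65% lower, and against 6.93% higher and 2.24% lower among genes of the members' length. They were 6 of the 7 constitutive beta subunits (all but Psmb2), the immune subunit Psmb10, 1 of 8 alpha subunits (Psma2), 3 of 6 ATPases (Psmc3, Psmc4 and Psmc5) and 2 of 11 other regulatory subunits (Psmd4 and Psmd8). None of the 3 assembly chaperones passed (edgeR, 1 with an unadjusted p under 0.05; DESeq2 and limma-voom 0). This comparison uses the same libraries as the comparison of housing, and 4 of the 5 members that rose in SIR offspring (Psmb6, Psmc3, Psmc4 and Psmd4) are among the 13.

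Psmd4 had 90.05, 96.6 and 110.4 CPM in males, against 81.3, 91.7 and 104 CPM in females, a log2 difference of 0.11 ± 0.03 (adjusted p = 0.0124, edgeR), and 14 of 15 males were above the female median. Psmb3, a structural beta subunit, had 47.8, 54.1 and 60.7 CPM in males, against 44.2, 48.8 and 54.8 CPM in females (0.13 ± 0.03, adjusted p = 0.0146). Psmb5 had the largest difference of the 13, with 83.2, 92.7 and 106.9 CPM in males, against 54.7, 84.4 and 95.1 CPM in females (0.16 ± 0.05, adjusted p = 0.025). In all 3 genes the sexes overlapped. The other log2 differences of the 13 ran from 0.09 (Psmc5, adjusted p = 0.0439) to 0.13 (Psmb10, adjusted p = 0.0187). Psmb6 stood at 0.11 ± 0.03 (adjusted p = 0.0169), Psmb7 at 0.09 ± 0.03 (adjusted p = 0.0246) and Psma2 at 0.11 ± 0.03 (adjusted p = 0.029). The median of the beta subunits was 0.11, against 0.04 for genes of their lengths. That of the alpha subunits was 0.03, against 0.04, and that of the ATPases 0.08, against 0.03. Without the library labelled SIR female 5 the count was 13, with Psmd9 in and Psmb4 out. With the length trend removed it was 4 (Psma2, Psmb1, Psmd1 and Psmd4), where 589 of all 14886 genes were higher and 385 lower in males. On log2(TPM + 1) it was 2 (Psmb3 and Psmc1), where 218 genes were higher and 470 lower. Without the 8 libraries numbered far from the others it was 0, where 193 genes were still higher and 323 lower in males. Before these changes 661 genes were higher and 841 lower.

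Transcript length moved with both comparisons. Over all genes tested, effective length and log2 fold change had a Spearman's rho of -0.324 for SIR minus control over both sexes and -0.259 for males minus females. Across the 39 members it was -0.318 and -0.093. These are descriptions across genes, which share libraries and are not replicates. Psmb6, at 693 bases, is among the shortest. Of 370 genes within 10% of its length, 81.1% had a lower log2 fold change for SIR minus control than Psmb6, their median was 0.07, and Psmb6 exceeded it by 0.07. For the longer Psmd9 (1734 bases), 90% of 1453 genes of its length were lower and their median was 0.01. For Psmc4 the share was 80%, for Psmc3 81.5% and for Psmd4 76.9%. At the other end, Psmc6 (24.9%), Psma6 (24.3%) and Psmd14 (26.5%) stood in the lower part of the genes of their length. In males minus females, Psmb5 stood above 87.9% of the genes of its length.

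**Figure D4:**
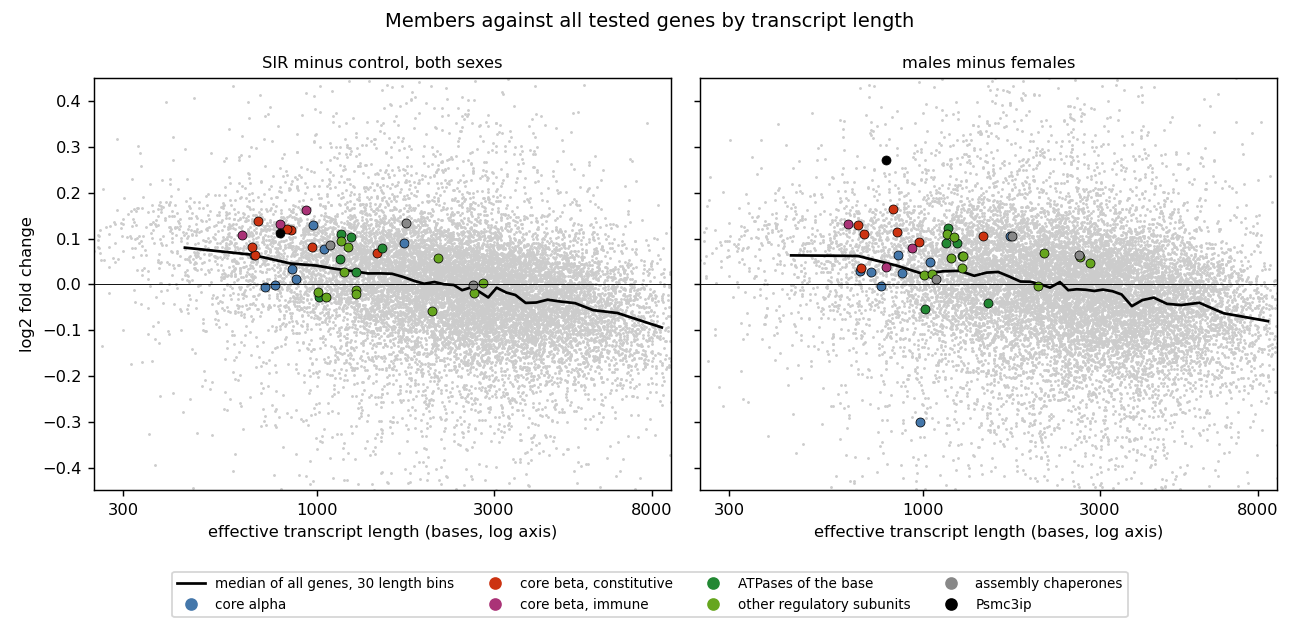
Log2 fold change against effective transcript length (log axis) for SIR minus control over both sexes and for males minus females. Grey points are all 14886 genes tested, cut at the axis limits, the black line is their median in 30 length bins, and coloured points are the 39 members by role. The line falls with length in both panels, and most beta subunits lie above it, while other regulatory subunits lie on both sides of it.

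Single members were also set against each other and against the length slope across the 31 libraries, with group means removed (6 relations, permutation tests within groups with 100000 resamples, two-sided, adjusted over the 6). The length slope is computed from log2 CPM of all genes, so a negative relation with a short gene such as Psmb6 is built into it, and its values are a description, with no p. Psmb6 and the length slope had a Pearson r of -0.709 and a Spearman rho of -0.642. Within groups r was -0.98 in SIR males, -0.583 in control males, -0.413 in SIR females and -0.853 in control females. Over the 29 libraries left without the 2 farthest in Psmb6, r was -0.649. In each relation the 2 left out are those farthest from the median of Psmb6 or, in its relations, Psmb8. With Psmb6 as log2(TPM + 1), r was -0.473, or -0.317 without the 2 farthest, and within groups -0.527 in SIR males, -0.094 in control males, -0.091 in SIR females and -0.964 in control females. Psmb6 rose with Psmb5 (r = 0.572, permutation adjusted p = 0.00114; rho = 0.581, adjusted p = 0.00168; within groups 0.598 in SIR males, 0.711 in control males, 0.755 in SIR females and 0.554 in control females; 0.545 without the 2 farthest). Both are short genes (693 and 828 bases), and other pairs of genes of their length were not examined, so this relation is not shown to be particular to them. Psmb8 rose with its constitutive counterpart Psmb5 (r = 0.443, permutation adjusted p = 0.0118; rho = 0.436, adjusted p = 0.0306; within groups 0.195 in SIR males, 0.488 in control males, 0.667 in SIR females and 0.597 in control females; 0.404 without the 2 farthest), though on log2(TPM + 1) r did not pass (0.346, permutation adjusted p = 0.0846) while rho did (0.542, adjusted p = 0.00669). Without the library labelled SIR female 5, r passed (0.428, permutation adjusted p = 0.0292) and rho did not (0.392, adjusted p = 0.0694). Relations of Psmb8 with the other immune genes did not pass. With Psmb9, encoded near it in the MHC region, r was 0.149 (permutation adjusted p = 0.444) and rho 0.114 (adjusted p = 0.615). With Psmb10, r was 0.313 (permutation adjusted p = 0.198) and rho 0.22 (adjusted p = 0.402), and with the peptide transporter Tap1 r was 0.143 (adjusted p = 0.444) and rho 0.098 (adjusted p = 0.615). Without the 2 farthest libraries these r were 0.135, 0.296 and 0.038. Within groups, r of Psmb8 with Psmb9 was 0.574 in SIR males, 0.504 in control males, -0.162 in SIR females and -0.359 in control females. With Psmb10 it was 0.59 in SIR males, 0.481 in control males, -0.056 in SIR females and 0.581 in control females, and with Tap1 -0.073 in SIR males, 0.288 in control males, 0.22 in SIR females and 0.123 in control females. On log2(TPM + 1), r of Psmb8 was 0.281 with Psmb9 (0.366 without the 2 farthest) and 0.142 with Psmb10. The counts behind Psmb8 and Psmb9 are low, at means of 2.41 and 0.979 CPM.

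**Figure D5:**
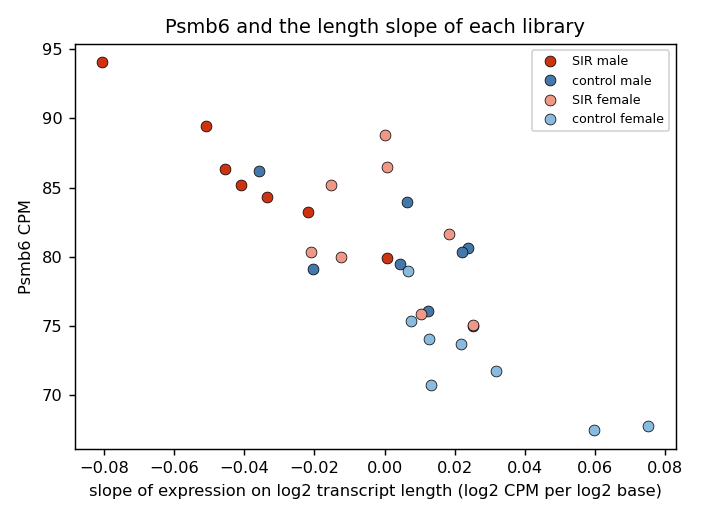
Psmb6 CPM in each library against the slope of that library's expression on log2 transcript length, coloured by group. Points run from upper left to lower right: SIR male 1 has the lowest slope and the highest Psmb6 (94.05 CPM), and control females 30 and 31 the highest slopes and the lowest Psmb6 (67.4 and 67.8 CPM).

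Library to library, the constitutive members were steady. The coefficient of variation of CPM within groups, averaged over the 4 groups, ran from 3.58% (Psmd12) to 8.56% (Psmb5) over the constitutive core and regulatory subunits other than Psma8 (36.2%) and Psmc2 (10.2%). It was 6.34% for Psmb10, 15.6% for Psmb8 and 27.4% for Psmb9. Some libraries stood at the end of their group for many members: control female 31, the shallowest, was the lowest of its group for 17 of 39 members, and control male 27 was the highest of its group for 20 of 39. Their part in the results was examined by leaving each out, as given above.

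Among other genes of the pathway, few passed over both sexes (edgeR throughout). Of 6 genes of proteasome activators and the inhibitor Psmf1, none passed (1 with an unadjusted p under 0.05; DESeq2 and limma-voom 0), and Psme2, a subunit of the interferon-inducible activator, had a log2 fold change of 0.11 ± 0.06 (adjusted p = 0.293). Of 5 dedicated assembly chaperones none passed (1 with an unadjusted p under 0.05; DESeq2 1 and limma-voom 0), and Pomp, which matures the beta ring, had 0.11 ± 0.04 (adjusted p = 0.0837). Of 10 other associated genes none passed (3 with an unadjusted p under 0.05; DESeq2 1 and limma-voom 0), and the ubiquitin receptor Adrm1 had 0.09 ± 0.03 (adjusted p = 0.118). Of 5 genes listed for control of proteasome transcription, 1 fell (DESeq2 2 and limma-voom 1): Ddi2, the protease that activates Nfe2l1, at -0.12 ± 0.03 (adjusted p = 0.0294). Nfe2l1 had -0.02 ± 0.02 (adjusted p = 0.585) and Nfe2l2 -0.06 ± 0.05 (adjusted p = 0.513). Ddi2 is a long transcript (8015 bases), and without the length trend its log2 fold change was -0.04 (adjusted p = 0.485).

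Of 16 genes of ubiquitin, its activation and its shuttles, 1 fell over both sexes: Uba6, a ubiquitin-activating enzyme, at -0.24 ± 0.06 (adjusted p = 0.0345), or -0.20 (adjusted p = 0.117) with the length trend removed. The ubiquitin gene Ubb (0.10 ± 0.03, adjusted p = 0.0684) did not pass. Between the sexes, Ubb and Rps27a were higher in males (0.12 and 0.14, adjusted p = 0.0199 and 0.0401, edgeR), while Uba6, Ddi2 and Sel1l were lower (-0.26, -0.10 and -0.12, adjusted p = 0.0102, 0.0367 and 0.0119). Of 16 genes of MHC class I and interferon signalling, none passed in any of the 5 comparisons. Unadjusted p was under 0.05 for 1 gene with the sexes pooled, 5 in males, 1 in females, 4 for the difference between male and female effects and 3 for sex, and DESeq2 and limma-voom called 0 in each. In males 14 of the 16 were positive, with a median of 0.141, against 7377 of 14886 genes and a median of -0.001 over all genes. In females 3 of the 16 were positive, with a median of -0.066, against 6929 of 14886 genes and -0.011, and with the sexes pooled 11 were positive, with a median of 0.035.

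Markers of other cell types in the tissue moved with some comparisons, and their part in the results was not tested. The 8 oligodendrocyte markers summed to 8408 ± 756 TPM in SIR males (range 7309 to 9251) and 7366 ± 825 in control males (6686 to 9191), and to 8108 ± 679 TPM in SIR females (6841 to 8870) and 9891 ± 670 in control females (9091 to 10804). Of these 8, 2 rose in SIR males and 4 fell in SIR females (edgeR), with median log2 fold changes of 0.23 and -0.24. The 7 choroid plexus markers summed to 13.3 to 23.3 TPM in SIR males and 17.2 to 99.5 in control males, and to 17.9 to 480.4 TPM in SIR females and 19.6 to 3436 in control females. The 10 microglial markers summed to 474 to 580.5 TPM in SIR libraries and 433 to 558 TPM in control libraries, and 1 of them, Trem2, rose over both sexes (0.18 ± 0.05, adjusted p = 0.0472). Over both sexes 1 of the 7 choroid plexus markers fell (edgeR, with 2 called by DESeq2 and 0 by limma-voom). Of the 8 relay neuron markers, 1 fell in SIR males and 2 rose in SIR females. Between the sexes, where 13 members were higher in males, 4 of 7 astrocyte markers, 3 of 8 oligodendrocyte markers and 3 of 7 choroid plexus markers were lower in males, with list medians of -0.124, -0.142 and -1.493. For the choroid plexus markers limma-voom called 0 between the sexes. Their sum in control females averaged 523 ± 1180 TPM (SD, n = 8), with the highest library at 3436 TPM. The astrocyte markers summed to 1162 to 1321 TPM in males and 1212 to 1503 TPM in females. The 7 neuron markers summed to 4346 to 6044 TPM in SIR libraries and 4573.5 to 5816.5 TPM in control libraries. None of the 7 passed for SIR minus control, pooled or in either sex, and 1 was higher in males than in females (edgeR). The 8 endothelial markers summed to 304 to 407 TPM in SIR libraries and 296.5 to 411 TPM in control libraries. None of the 8 passed in any of the 5 comparisons (edgeR, with 1 called by DESeq2 in males). None of these marker genes was at 0 in every library.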

How the data were processed

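RNA was taken from the thalamus with the Qiagen AllPrep kit, and libraries were made from polyadenylated RNA with the Illumina Stranded mRNA kit, per the labels' protocols. The submitters' processing notes name FastQC, kallisto and the build GRCm39; tool versions and any strand setting are not given in the sources used here. Each deposited table holds 105878 transcripts for 1 of the 31 libraries and lists, per the file headers, effective length, estimated count and TPM. The estimated counts deposited by the authors differ in total between libraries. The TPM deposited by the authors account for effective length and share 1 total.

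Transcripts were matched by identifier to GENCODE M21 (build GRCm38), which served for names, biotypes and chromosomes only (99.12% matched, 25497 genes). For each gene, TPM and estimated counts were added up over transcripts, the counts were rounded to whole numbers, and effective length was averaged with TPM as weights. No pair of libraries of 1 group agreed within sampling noise. Genes kept by filterByExpr (14886) were scaled by TMM and fitted with 1 mean per group over all 31 libraries (edgeR 4.0.16, robust quasi-likelihood, R 4.3.3). The SE is the size of the log2 fold change divided by the square root of F. Adjusted p are Benjamini-Hochberg values over every gene tested (threshold 0.05). The labels give no litters or batches, and p-values reflect variation among these animals alone. CPM are on TMM-scaled totals. Alternatives were other scaling factors and filters, DESeq2 1.42.0, limma 3.58.1 (voom, and trend on log2(TPM + 1)), removal of the length trend, protein-coding transcripts only, and libraries left out (each in turn, the 2 shallowest, and 8 whose numbers lie far from the others of their housing group). Removal of the GC trend was added after the data were seen. The scripts were tested on simulated data.

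The members and gene lists were chosen with earlier results of these data known. All members are accounted for, and those described in full are the ones that passed in any comparison, the 2 with the smallest p in each, the catalytic subunits and the highest and lowest by TPM. Of the other lists, genes that passed and up to 4 others in list order are named, except some that are not reported here; Trem2 was named because it alone passed in its list, and Psmd2, Psmd8, Psma6, Psmc2 and Psmd14 and other members were named as ends of a range or as examples after their values were seen. Marker lists are given as counts and sums.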

Additional observations from a re-analysis of the deposited data

Results flagged for a closer look

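Within groups, the highest or lowest library was checked for each of the 39 tested members, giving 156 checks. In 16 of them (10.3%) it stood apart from the rest of its group by Dixon's test at the 95% level, where chance flags about 1 in 20 groups (5%). Control female 31, the shallowest library, accounted for 7 of the 16. It was the lowest control female for Psmb1 (81.95 CPM, others from 97.1 to 105.7), Psma2 (58.0 CPM, others from 70.6 to 77.0), Psmc5 (156.9 CPM, others from 179.6 to 197.4), Psmb5 (54.7 CPM, others from 77.7 to 88.3), Psmd13 (48.4 CPM, others from 56.0 to 62.3) and Psmc4 (67.2 CPM, others from 77.8 to 86.2). For the lid subunit Psmd11 it was instead the highest (77.6 CPM, others from 61.2 to 66.9).

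Control male 27 was the highest control male for Psmb4 (111.8 CPM, others from 86.95 to 95.8), Psma2 (86.55 CPM, others from 76.5 to 81.1) and Psma7 (69.5 CPM, others from 53.5 to 60.5). Control male 19 was the highest for Psmd6 (59.6 CPM, others from 50.2 to 54.6), and control male 25 the lowest for Psmd9 (17.05 CPM, others from 18.8 to 20.2). Among SIR males, male 14 was the lowest for Psmb1 (103.3 CPM, others from 110.6 to 115.8) and male 13 the lowest for Psmc2 (67.5 CPM, others from 84.1 to 93.8). Among SIR females, female 3 was the highest for Psmd2 (277.4 CPM, others from 253.1 to 264.2), and the library labelled SIR female 5, which carries Y-linked transcripts, the lowest for Psma5 (48.1 CPM, others from 52.3 to 53.9).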

How the results depend on the processing

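No paired analysis was possible because the numbers in the titles are unique and no groups share one. Over both sexes the 5 calls of members became 2 with no filter on low counts, 9 with DESeq2, 1 with the GC trend removed, and 0 on log2(TPM + 1), with the length trend removed or without the 8 libraries numbered far from the others. They ranged from 1 to 9 when each library was left out. In males the count of 0 became 1 with upper-quartile factors, with DESeq2, without the 2 shallowest libraries and without the 8, and ranged from 0 to 1 with each library left out. In females the 2 calls became 4 with DESeq2, 1 with the length trend removed, and 0 on log2(TPM + 1) or without the 8, and ranged from 2 to 3 with each library left out. For the difference between the sexes in the effect of SIR the count stayed 0 in each setting run. Between the sexes the 13 calls became 9 with no filter on low counts, 2 on log2(TPM + 1), 4 with the length trend removed and 0 without the 8. They ranged from 9 to 15 with each library left out. With the GC trend removed the count was 13, with Psmb10, Psmc4, Psmc5 and Psmd8 out and Psmd1, Psmd5, Psmd12 and Psmd14 in. Psmb6 was called in 9 of 12 other settings over both sexes. On log2(TPM + 1), Psmb9 over both sexes was -0.016 and r of Psmb8 was -0.074 with Tap1 and 0.346 with Psmb5. The female value of Psmb8 ranged from -0.089 to 0.051 with each library left out, and that of Nfe2l1 over both sexes was 0.021 with the length trend removed and 0.0 without the 2 shallowest libraries. The cause of these changes was not tested. Low counts limit Psma8, Psmb8, Psmb9 and Psmc3ip.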
